A study of Mus musculus with 9 samples.

Results

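Chromatin accessibility was followed at 33 genes of B cell receptor signalling in age-associated B cells with 3 forms of Tlr9. The members were peaks of the deposited table that overlapped the RefSeq body of one of these genes, or that overlapped no protein-coding gene and had one of them as the nearest body within 100 kb. This gave 473 of 61540 peaks. Of the genes, 23 with 346 peaks are known to carry the signal forward (activators), 7 with 64 peaks are known to dampen it (inhibitors), and 3 with 63 peaks were put in neither class. Those 3 are Lyn and Grb2, which act in both directions, and Fcrla, whose role is not settled. No member peak overlapped another protein-coding gene, and a peak's nearness to a gene does not show that it regulates that gene.

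The B cell receptor is a membrane immunoglobulin paired with CD79A and CD79B, whose cytoplasmic tails are phosphorylated by Src family kinases and then recruit SYK. SYK assembles BTK, BLNK and phospholipase C-gamma-2, while the coreceptor and the adaptor BCAP (Pik3ap1) bring in phosphoinositide 3-kinase, and calcium and diacylglycerol then drive NFAT and, through protein kinase C-beta, BCL10 and MALT1, NF-kB. CD22, Siglec-G, the phosphatases SHP-1 (Ptpn6) and SHIP-1 (Inpp5d), DOK3 and the CBL ubiquitin ligases restrain the signal, and loss of several of these is known to cause autoimmunity in mice.

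Open chromatin was assayed with ATAC-seq, which relies on a transposase that cuts accessible DNA and tags the ends. Cells labelled as age-associated B cells, a population that expands with age and in lupus, were sorted from spleen. The hosts were MRL/lpr mice 20 weeks of age, a strain whose Fas mutation leads to lupus-like disease, and every group carried that background. Each host was a chimera rebuilt with bone marrow of 3 genotypes: TLR9-/- (KO), TLR9P915H/P915H (P915H), a mutant that the series title calls non-signaling, and TLR9WT (WT). There were 3 samples per genotype, 9 in all. Tlr9 encodes the endosomal receptor for CpG DNA. No label ties a sample to a particular host or states that samples of a group were taken from different animals, so the p-values reflect only sample-to-sample spread, part of which may be technical. The values are log2 on a scale like CPM (counts scaled to a fixed library total): their antilogs summed to 0.987 to 1.014 times the total that such a scale gives in each sample, and the sequencing depth is unknown. Over 6 markers of age-associated B cells, the mean of the strongest peak ran from 3.58 (Cxcr3) to 4.85 (Tbx21) on the log2 scale, with 4.07 at Itgax. Over the follicular B cell markers it ran from 1.11 (Fcer2a) to 6.19 (Ccr7), with 4.93 at Cr2 and no peak at Ighd. The highest of a T cell list was 5.87 (Cd3d) and of a monocyte and macrophage list 5.94 (Cebpb), so these levels do not show cell identity.

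Among the 33 genes, 28 had a start site in the RefSeq promoter table, and 21 member peaks lay over a start site of their own gene. Only 2 of these, at the inhibitors Dok3 and Ptpn6, differed between KO and P915H by the test described below. The sequence of each peak upstream of the start is shown because these were the calls at a start site, with a Cd79a peak beside them for comparison, which did not pass and which ends just before the start rather than over it, so that it is not among the 21. The Dok3 stretch is chr13:55528539-55528675 on the minus strand, the Ptpn6 stretch chr6:124738710-124738847 on the minus strand, and the Cd79a stretch chr7:24897291-24897496 on the plus strand, all from RefSeq on GRCm38.p6, and capitals mark the ETS family core GGAAGT.
Dok3: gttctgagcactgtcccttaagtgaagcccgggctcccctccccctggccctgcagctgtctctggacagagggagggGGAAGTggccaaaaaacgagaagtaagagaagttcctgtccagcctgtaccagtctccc
Ptpn6: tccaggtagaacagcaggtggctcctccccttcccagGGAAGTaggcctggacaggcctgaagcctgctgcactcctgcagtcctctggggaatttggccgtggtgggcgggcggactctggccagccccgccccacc
Cd79a: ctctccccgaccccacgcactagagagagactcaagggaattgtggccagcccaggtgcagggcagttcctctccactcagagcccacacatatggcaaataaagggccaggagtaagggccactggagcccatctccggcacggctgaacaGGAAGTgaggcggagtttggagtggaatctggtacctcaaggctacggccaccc
All 3 stretches hold the core, also Cd79a, whose peak was not called. The Dok3 stretch lies inside the gene body, which extends upstream of the listed start. The core was chosen for display after these sequences had been seen. Over the windows of 250 bases before to 50 bases after a start, searched on both strands, GGAAGT was found in 16 of the 39 member windows (41.0%) and in 23.8% of all 32851 windows. The octamer ATTTGCAT was found in 2 member windows, at Blnk and Prkcb (1.74% of all windows). The E-box CANNTG was found in 29 member windows (74.4%, against 72.3% of all). Each motif was counted separately, and matches of different motifs may overlap.

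KO was set against P915H to ask whether cells without the receptor differ from cells with the mutant receptor. It was tested with limma on all 61540 peaks, with a term for the replicate number and Benjamini-Hochberg adjustment, and a peak was called at an adjusted p under 0.05. Of the 473 member peaks, 60 were called (12.7%), 24 higher and 36 lower in KO. Over all peaks 15.5% were called, 6.55% higher and 8.97% lower in KO, so the members as a whole were called at about the rate of the table. The median log2 difference, KO minus P915H, was -0.055 over the member peaks and -0.007 over all peaks, and the median size of the difference was 0.229 against 0.232. Of the 33 genes, 8 had only higher peaks, 12 only lower peaks and 7 both. At Cd79b, Lyn, Vav1, Akt1, Siglecg and Cblb no peak was called.

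Activators and inhibitors were then taken apart. Of 346 activator peaks, 20 were higher and 32 lower in KO (15.0%). Of 64 inhibitor peaks, 3 were higher and 2 lower (7.81%). In neither class, 1 of 63 peaks was higher and 2 were lower (4.76%). The median difference was -0.047 for activator peaks and -0.09 for inhibitor peaks. Taken by replicate number, these medians had an SD of 0.073 and 0.114. The difference between the classes was not tested. Leaving out P915H replicate 2 took the member count from 60 to 18 and the inhibitor count from 5 to 2, while leaving out KO replicate 1 raised them to 90 and 13. The share called in those fits was 3.81% and 19.0% of the members, against 5.24% and 16.8% of all peaks. The member count was also lowered by more than 1.5 times without KO replicate 2 (26, with 6.2% of all peaks called), KO replicate 3 (27, with 5.8%), P915H replicate 1 (38, with 9.65%) or P915H replicate 3 (29, with 7.69%), so the count over the whole table fell in the same fits. In all, 16 peaks were called in all 9 fits with 1 sample left out. Of the other 44 calls, 42 needed P915H replicate 2 in the fit, 36 needed KO replicate 2 and 34 needed KO replicate 3.

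**Figure D1:**
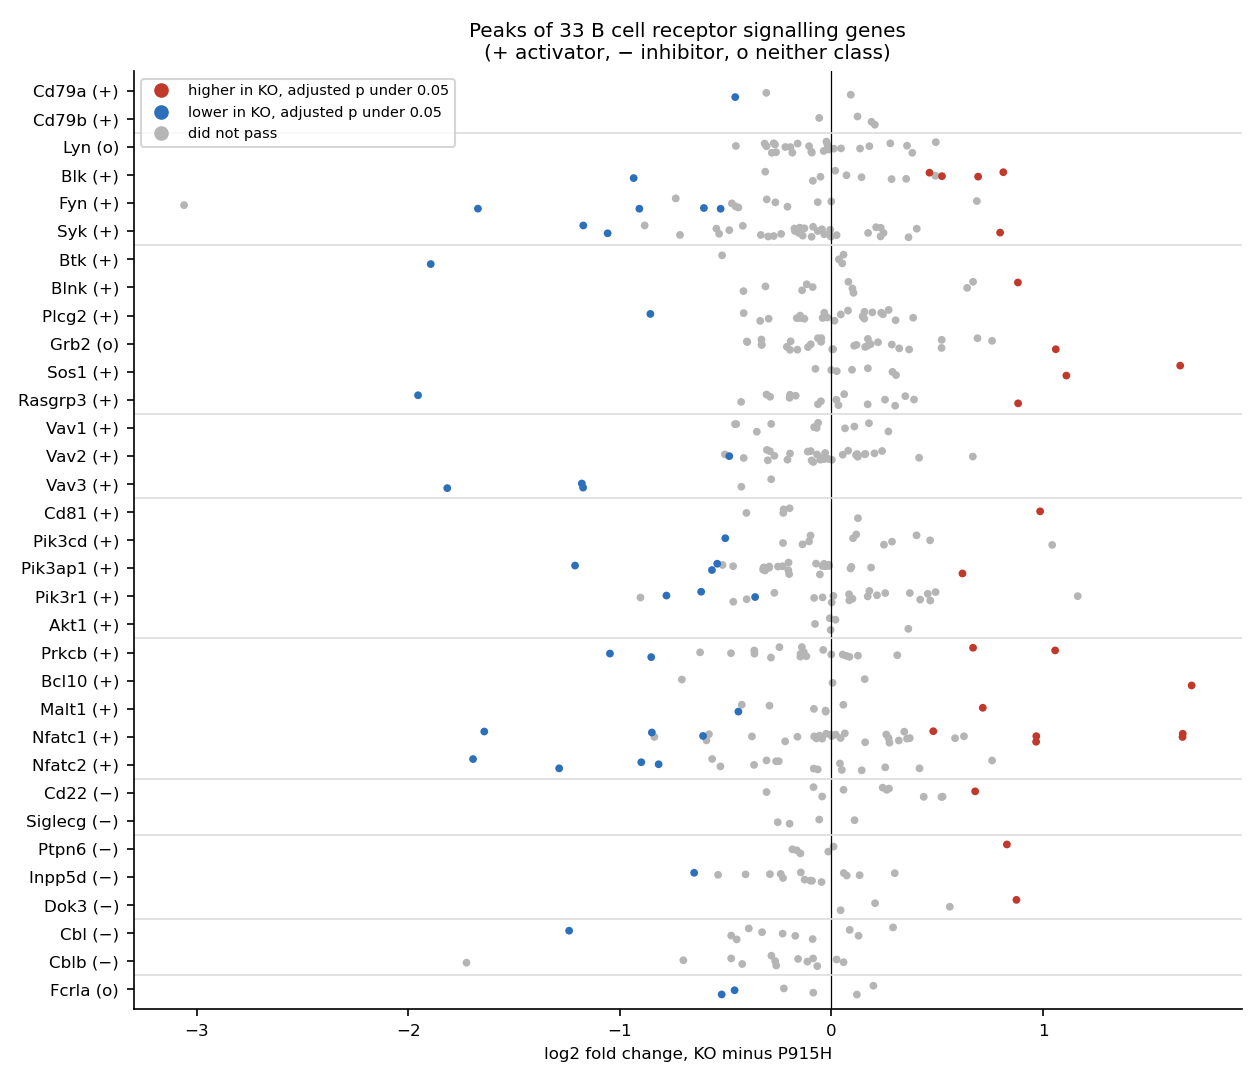
Each point is a peak of the gene named on the vertical axis, and the horizontal axis is the log2 difference, KO minus P915H. Genes are ordered by role, with + for activators, − for inhibitors and o for neither class. Called peaks lie on both sides of 0, 24 higher (red) and 36 lower (blue) in KO, and most peaks of most genes did not pass (grey).

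By role, the share called was 22.1% in the arm of protein kinase C, NF-kB and NFAT (9 higher and 10 lower of 86 peaks), 13.0% at the proximal kinases, 12.2% at the coreceptor and phosphoinositide 3-kinase genes, 8.25% at Btk, the adaptors and the phospholipase, and 8.51% at the Vav genes. In the groups of few peaks 1 or 2 calls make a large share, such as 33.3% at Fcrla with 6 peaks. None of these shares was tested against the table's 15.5%.

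**Figure D2:**
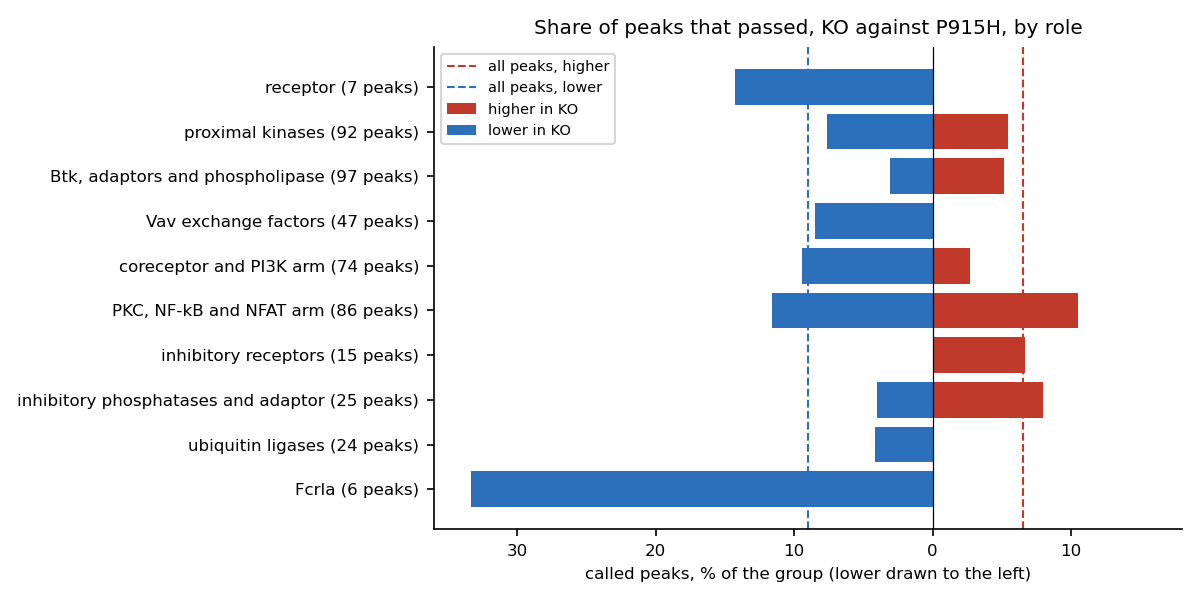
Bars give the percentage of each role group's peaks called in KO against P915H, higher to the right and lower to the left, with the number of peaks in brackets. Dashed lines mark the shares over all peaks, 6.55% higher and 8.97% lower. The protein kinase C, NF-kB and NFAT arm reaches past both lines. The Vav genes have only lower calls (4). The receptor chains and the ubiquitin ligases have 1 call each and Fcrla has 2, all lower, while the inhibitory receptors have 1, higher. So few calls do not show a direction.

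At the receptor chains, 1 of 7 peaks was called. A Cd79a peak 933 bp outside the gene (chr7:24896421-24896564) was lower in KO by a log2 difference of -0.46 (adjusted p 0.0433), and with 1 sample left out this call held in 2 of 9 fits, those without KO replicate 1 or WT replicate 3. The strongest Cd79a peak, the one just before the start, whose sequence is shown above, had values of 5.64, 5.10 and 5.38 in KO, 5.57, 5.89 and 5.68 in WT and 5.57, 5.78 and 5.71 in P915H. KO replicate 1 lay among the other genotypes there, KO replicates 2 and 3 below them, and the difference of -0.31 ± 0.15 (SE) did not pass (adjusted p 0.202). The strongest Cd79b peak (chr11:106308239-106308449) had 5.01, 4.80 and 4.94 in KO, 4.95, 5.05 and 5.01 in WT and 4.93, 5.05 and 4.94 in P915H. The genotypes overlapped, with a difference of -0.06 ± 0.11.

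Of 92 peaks at the proximal kinases, 5 were higher and 7 lower in KO. The strongest Syk peak (chr13:52572589-52572790) lay 9820 bp outside the gene, with 6.38, 6.23 and 6.25 in KO, 6.41, 6.49 and 6.51 in WT and 6.38, 6.45 and 6.41 in P915H, and did not pass (adjusted p 0.354). It lay 10647 bp from the nearest listed Syk start and 435 bp from a listed start of another gene. Syk, the kinase that carries the signal from the receptor tails to the adaptors, had 3 called peaks among 37. Within the gene, chr13:52591959-52592133 was higher in KO by 0.80 ± 0.14 and chr13:52614895-52615309 was lower, at -1.06 ± 0.22, while chr13:52728015-52728228, 79223 bp outside, was lower at -1.17 ± 0.28. The first of these was called in all fits with a sample left out. The call at chr13:52614895-52615309 was lost without KO replicate 3 or P915H replicate 2 or 3, and the distal call without KO replicate 2 or 3 or P915H replicate 2 or 3.

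Blk, a Src family kinase restricted largely to B cells, had called peaks in both directions among 14. The peak chr14:63389051-63389294 was lower in KO at -0.94 ± 0.15 (adjusted p 0.00432). The peak chr14:63410436-63410811, farther along the same gene, was higher at 0.81 ± 0.16 (adjusted p 0.00981), as were chr14:63417042-63417270 at 0.46 and, outside the gene, chr14:63372632-63372810 at 0.52 and chr14:63422380-63422593 at 0.69. The lower peak was called in all fits with 1 sample left out. The higher ones were not: chr14:63410436-63410811 lost its call without KO replicate 3 or P915H replicate 2, chr14:63422380-63422593 without KO replicate 2 or P915H replicate 1 or 2, and chr14:63417042-63417270 without KO replicate 2 or 3 or any 1 P915H sample. The call at chr14:63372632-63372810 held only without WT replicate 3.

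At Fyn, another Src family kinase, 4 of 15 peaks were called, all lower in KO. The peak chr10:39407693-39407863 within the gene had 0.60, 0.52 and 0.24 in KO, 2.02, 1.52 and 1.56 in WT and 1.65, 2.24 and 2.48 in P915H. All KO samples lay below all others, and the peak was 3.18-fold lower in KO than in P915H (log2 -1.67 ± 0.31, adjusted p 0.00712, lost without P915H replicate 2). The others were chr10:39412968-39413177 at -0.52 and chr10:39413186-39413420 at -0.60 in the gene, and chr10:39321286-39321502, 48241 bp outside, at -0.91. The 2 calls in the gene were lost without KO replicate 2 or 3 or any 1 P915H sample, and the distal one held only without KO replicate 1 or WT replicate 3. Lyn, the Src family kinase that starts the signal and also phosphorylates inhibitory receptors, had no call among 26 peaks.

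The module of Btk, the adaptors and phospholipase C had 5 higher and 3 lower peaks among 97. Btk encodes the Tec family kinase that activates the phospholipase. One of its 5 peaks, chrX:134564404-134564620 in the gene, had 1.80, 0.58 and 0.51 in KO, 2.01, 2.40 and 2.52 in WT and 2.32, 3.14 and 3.10 in P915H. KO replicate 1 was far closer to WT than the other KO samples, yet no KO sample reached another genotype. The peak was 3.72-fold lower in KO than in P915H (log2 -1.89 ± 0.38, adjusted p 0.00932), a call lost without KO replicate 2 or 3 or P915H replicate 2. The strongest Btk peak, chrX:134566666-134566880, had 3.84, 3.45 and 3.70 in KO, 4.17, 4.01 and 4.07 in WT and 3.92, 4.46 and 4.15 in P915H, and at -0.52 ± 0.17 it did not pass (adjusted p 0.0684).

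Rasgrp3, a diacylglycerol-activated exchange factor for Ras, had a called peak in each direction. The lower one, chr17:75436052-75436455, is centred 348 bp inside a listed start and had 0.76, -0.68 and 0.30 in KO, 1.18, 1.84 and 1.64 in WT and 1.82, 2.61 and 1.81 in P915H. KO lay below both other genotypes, whose samples overlapped each other. It was 3.87-fold lower in KO than in P915H (log2 -1.95 ± 0.42, adjusted p 0.0135), the largest fold change among the member calls, and was lost without KO replicate 3 or P915H replicate 2. It was a weak peak, with a mean over all samples of 1.25 against a median of 3.03 over all peaks. The calls with the largest fold changes at Bcl10 (mean 1.04), Fyn (1.425), Vav3 (1.44) and Btk (2.04) were also weak, while that at Nfatc2 had a mean of 4.01. The higher one, chr17:75506214-75506440, differed by 0.88 ± 0.15 and was called in all fits with a sample left out.

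Sos1, the Ras exchange factor that GRB2 recruits, had 2 higher peaks next to each other outside the gene. The peak chr17:80499453-80499684, 19000 bp away, had 1.93, 2.26 and 2.41 in KO, 2.00, 1.64 and 1.51 in WT and 0.54, 0.57 and 0.54 in P915H. KO replicate 1 lay below WT replicate 1, while P915H lay far below both genotypes. It was 3.13-fold higher in KO than in P915H (log2 1.65 ± 0.26, adjusted p 0.00418). Its neighbour chr17:80498898-80499255 differed by 1.11 ± 0.26. The call at chr17:80499453-80499684 held in all fits with a sample left out, and the neighbour's was lost in 4 of them, those without KO replicate 2 or 3 or P915H replicate 1 or 3.

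Grb2 itself, an adaptor of both activating and inhibitory complexes, had 1 call among 31 peaks, chr11:115677649-115677855 in the gene. It had 3.53, 3.83 and 3.55 in KO, 2.92, 2.41 and 2.96 in WT and 2.53, 2.73 and 2.47 in P915H, and was 2.08-fold higher in KO than in P915H (log2 1.06 ± 0.20, adjusted p 0.00719). KO stood above all WT and P915H samples, which overlapped. Blnk, the scaffold that joins BTK to the phospholipase, had a higher peak at chr19:40970848-40971061 (0.88 ± 0.20, lost without KO replicate 2 or P915H replicate 1 or 2). Plcg2, the phospholipase, had a lower peak at chr8:117513252-117513464 (-0.86 ± 0.16). The Grb2 and Plcg2 calls held in every fit with a sample left out.

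The Vav proteins are exchange factors for Rac that couple the receptor to the cytoskeleton and to calcium. Of their 47 peaks 4 were called, all lower in KO, and 3 of those lay in Vav3, which had 5 peaks. The peak chr3:109454611-109454948 had 1.05, 0.18 and -0.54 in KO, 1.50, 2.17 and 2.48 in WT and 1.77, 1.98 and 2.38 in P915H. KO was below the other genotypes, which overlapped. The KO samples were spread over more than those of WT or P915H, in values whose replicate means had been made equal before deposit. The peak was 3.52-fold lower in KO than in P915H (log2 -1.82 ± 0.43, adjusted p 0.0194). The others were chr3:109368496-109368731 at -1.17 ± 0.27 and chr3:109451527-109451743 at -1.18 ± 0.19. Of the 3, the last was called in all fits with a sample left out, and the other 2 lost the call without KO replicate 2 or 3 or P915H replicate 2 or 3. A Vav2 peak, chr2:27309760-27309977, was lower at -0.48 (adjusted p 0.0467, held only without KO replicate 1 or WT replicate 3), and Vav1 had no call among 11.

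The coreceptor and phosphoinositide 3-kinase genes had 2 higher and 7 lower peaks among 74. Pik3ap1 encodes BCAP, the adaptor that recruits the kinase. Its peak chr19:41384113-41384321, centred 885 bp inside a listed start, was lower in KO at -1.21 ± 0.21 and was called in all fits with a sample left out. It also had lower peaks at chr19:41364582-41364792 (-0.54) and chr19:41365687-41365893 (-0.57) and a higher one at chr19:41321190-41321571 (0.62). Pik3r1, the regulatory subunit, had 3 neighbouring lower peaks among 24, at chr13:101654457-101654677 (-0.78), chr13:101654956-101655161 (-0.62) and chr13:101659126-101659335 (-0.36). Pik3cd, the catalytic subunit that predominates in lymphocytes, had 1 lower peak at chr4:149658108-149658335 (-0.50). Cd81, a tetraspanin of the B cell coreceptor complex, had 1 higher peak at chr7:143042909-143043284, 9466 bp outside the gene (0.99 ± 0.21, lost without KO replicate 2 or P915H replicate 2). The other calls at Pik3ap1, Pik3r1 and Pik3cd were lost without KO replicate 2 or 3 or P915H replicate 2 or 3, and 4 of these 7 also without P915H replicate 1. Akt1, the kinase downstream of the lipid product, had no call among 5 peaks.

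Nfatc1 and Nfatc2 encode calcium-driven transcription factors. Nfatc1 had 5 higher and 3 lower peaks among 34. The higher ones included 4 neighbours within the gene, between chr18:80617318-80617586 and chr18:80619498-80619836. The first of them had 3.66, 3.73 and 3.45 in KO, 2.52, 2.50 and 2.74 in WT and 1.98, 1.93 and 1.97 in P915H, and the last 2.74, 3.00 and 2.96, then 2.48, 2.35 and 1.85, and 1.15, 1.02 and 1.55. In both, no genotype overlapped another, with KO highest and P915H lowest. They were 3.16-fold higher in KO than in P915H, with log2 differences of 1.66 ± 0.17 (adjusted p 0.000699) and 1.66 ± 0.25 (adjusted p 0.00322), and both were called in all fits with a sample left out. The 2 peaks between them differed by 0.97 each, and another higher peak, chr18:80712343-80712568, by 0.48. Of the peaks between, the one starting at 80617774 lost its call without P915H replicate 2 and the one starting at 80618791 without KO replicate 2 or 3 or any 1 P915H sample, and chr18:80712343-80712568 held its call only without WT replicate 3.

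The 3 lower Nfatc1 peaks lay outside the gene on the side of lower coordinates. The nearest, chr18:80561510-80562111, was 44094 bp away and differed by -1.64 ± 0.28, called in all fits with a sample left out. The others, chr18:80554578-80554797 and chr18:80555885-80556101, differed by -0.85 (lost without P915H replicate 2) and -0.61 (lost without KO replicate 2 or 3 or P915H replicate 1 or 2). So the higher peaks were inside the gene and the lower ones outside it, a pattern chosen for mention after the values were seen.

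At Nfatc2, 4 of 18 peaks were called, all lower in KO. The peak chr2:168438942-168439173, 37237 bp outside the gene, had 3.58, 2.58 and 2.84 in KO, 3.95, 4.64 and 4.42 in WT and 4.50, 4.81 and 4.77 in P915H. The peak chr2:168543065-168543274 inside it had 2.26, 2.47 and 2.10 in KO, 3.39, 3.24 and 3.76 in WT and 3.65, 3.59 and 3.44 in P915H. At both, all KO samples were below all others and WT overlapped P915H. They were 3.24-fold and 2.44-fold lower in KO than in P915H (log2 -1.69 ± 0.26, adjusted p 0.00374, and -1.29 ± 0.19, adjusted p 0.00296). Inside the gene, the peak starting at chr2 168522385 differed by -0.90 and the one starting at 168541344 by -0.82. The call at 168541344 was lost without KO replicate 2 or any 1 P915H sample, and the other 3 held in all fits with a sample left out.

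**Figure D3:**
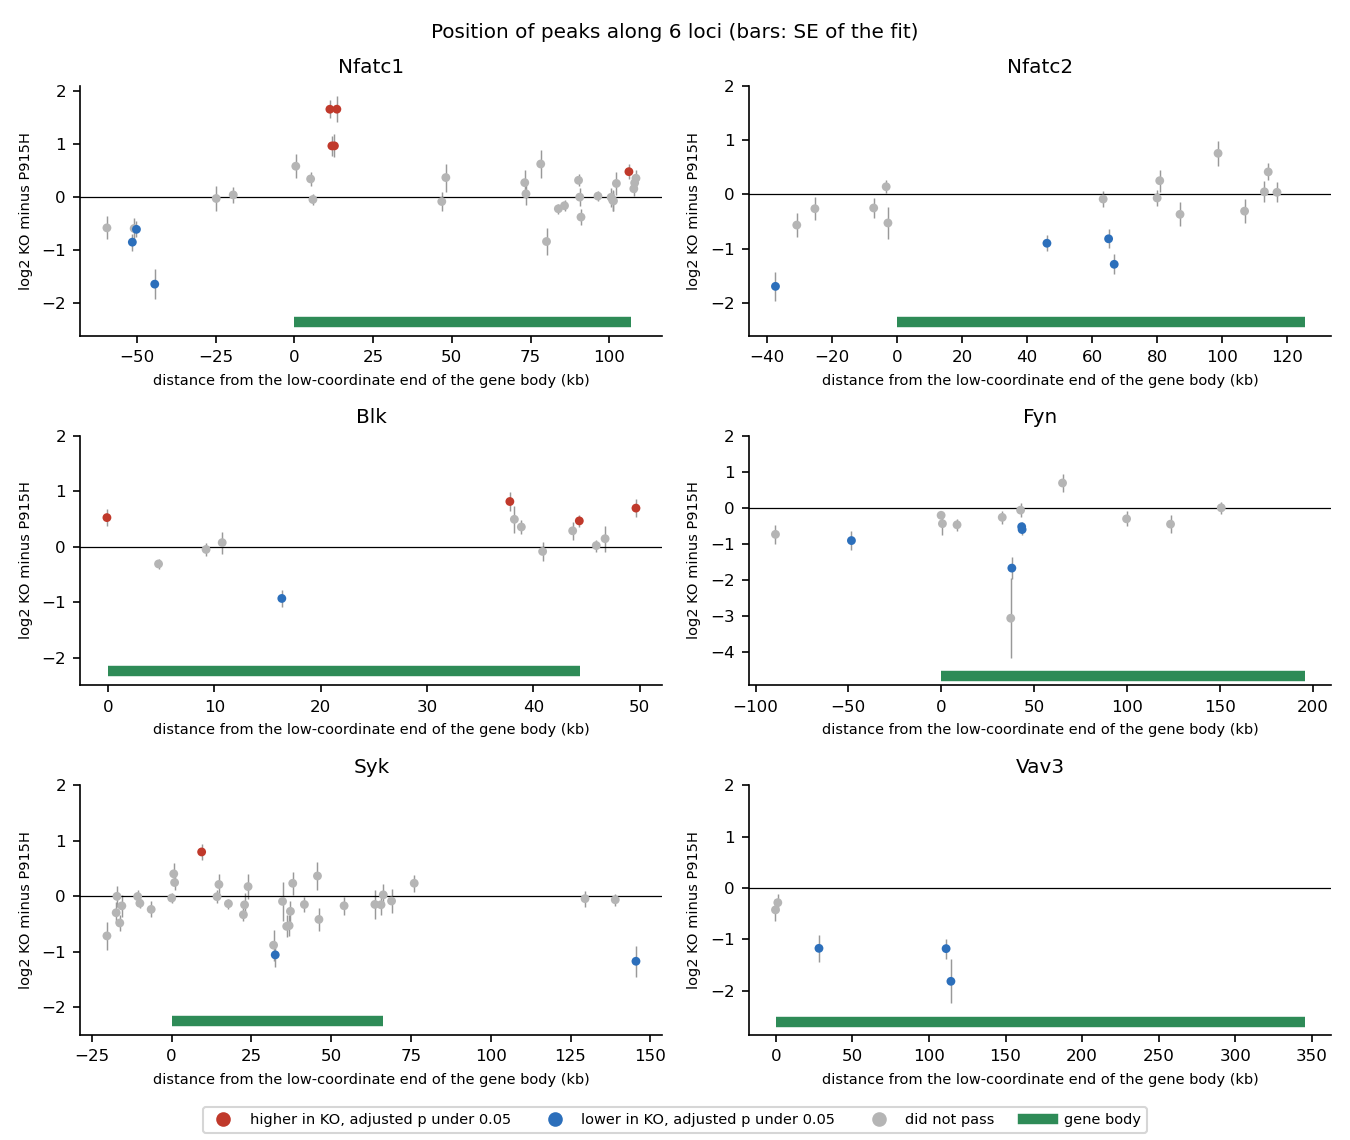
Each panel shows the peaks of 1 gene by distance in kb from the low-coordinate end of the gene body (green bar), against the log2 difference, KO minus P915H, with the SE of the fit. At Nfatc1 a group of 4 higher peaks lies in the gene and 3 lower ones outside, while at Nfatc2, Fyn and Vav3 all called peaks are lower.

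BCL10 and MALT1 form, with a scaffold, the complex that relays protein kinase C to NF-kB. The Bcl10 peak chr3:145916497-145916746, 7516 bp outside the gene, had 1.70, 1.81 and 2.29 in KO, 1.16, 1.00 and 0.73 in WT and 0.27, 0.32 and 0.11 in P915H. The genotypes did not overlap, and it was 3.25-fold higher in KO than in P915H (log2 1.70 ± 0.32, adjusted p 0.00729, lost without KO replicate 3). At Malt1, chr18:65414851-65415065 and chr18:65417399-65417591, 15874 and 13348 bp outside the gene, differed by -0.44 and 0.72. Prkcb, the protein kinase C isoform of this step, had 2 higher and 2 lower peaks among 22, with differences of 0.67 at chr7:122256782-122256997, -1.05 at chr7:122272403-122272646, -0.85 at chr7:122367752-122367894 and 1.06 at chr7:122397807-122397980. All 6 calls at Malt1 and Prkcb were lost without KO replicate 2 or P915H replicate 2 or 3, and most also without KO replicate 3 or P915H replicate 1.

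Among the inhibitory receptors, Cd22, a sialic-acid-binding lectin that recruits SHP-1, had 1 call among 11 peaks and Siglecg, its relative, had none among 4. The Cd22 peak chr7:30863450-30863665, 1739 bp outside the gene and its strongest, had 4.67, 4.70 and 4.83 in KO, 4.46, 4.48 and 4.41 in WT and 4.11, 4.05 and 3.99 in P915H. It lay past the end of the gene, 15363 bp from the Cd22 start and 1980 bp from a listed start of another gene. The genotypes did not overlap. It was 1.6-fold higher in KO than in P915H (log2 0.68 ± 0.11, adjusted p 0.00495) and was called in all fits with a sample left out.

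Dok3, an adaptor that holds back BTK signalling together with SHIP-1, had 1 call among 4 peaks, at the start site whose upstream sequence is printed above (chr13:55528460-55528675, centred 30 bp before the start). This is the only start listed for Dok3. The RefSeq gene body extends upstream of it, to chr13:55530345, so the peak and the printed stretch lie inside the gene. The peak had 4.55, 4.79 and 4.51 in KO, 4.20, 4.18 and 4.37 in WT and 3.86, 3.64 and 3.73 in P915H. The genotypes did not overlap, and it was 1.83-fold higher in KO than in P915H (log2 0.87 ± 0.14, adjusted p 0.00378), and was called in all fits with a sample left out. The Ptpn6 start-site peak (chr6:124738636-124738847, centred 32 bp before the start) had 3.27, 3.50 and 3.17 in KO, 2.74, 2.47 and 2.84 in WT and 2.47, 2.51 and 2.47 in P915H. KO lay above both other genotypes, which overlapped, and it was 1.78-fold higher in KO than in P915H (log2 0.83 ± 0.17, adjusted p 0.0118, lost without KO replicate 2 or P915H replicate 2). The strongest Ptpn6 peak, chr6:124733049-124733254 within the gene, had 5.43, 5.37 and 5.29 in KO, 5.47, 5.36 and 5.64 in WT and 5.33, 5.51 and 5.30 in P915H, with no separation and a difference of -0.015 ± 0.113.

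The remaining inhibitor calls were lower in KO. At Inpp5d, the lipid phosphatase that removes the product of phosphoinositide 3-kinase, chr1:87631720-87631922 had 2.84, 2.78 and 2.89 in KO, 3.21, 3.40 and 3.27 in WT and 3.56, 3.43 and 3.46 in P915H. Genotypes did not overlap, and it was 1.57-fold lower in KO than in P915H (log2 -0.65 ± 0.14, adjusted p 0.0146), a call lost without KO replicate 2 or 3 or any 1 P915H sample. At Cbl, a ubiquitin ligase for activated kinases, chr9:44225992-44226241 had 2.23, 1.49 and 1.89 in KO, 2.32, 2.71 and 2.40 in WT and 2.90, 3.26 and 3.17 in P915H. KO lay below WT and WT below P915H with no overlap, and it was 2.36-fold lower in KO than in P915H (log2 -1.24 ± 0.23, adjusted p 0.00754, lost without P915H replicate 2). Its relative Cblb had no call among 13 peaks.

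Fcrla, an intracellular Fc receptor-like protein of B cells, had 2 lower peaks among 6. The peak chr1:170928627-170928848 had 5.67, 5.17 and 5.50 in KO, 5.70, 6.01 and 5.86 in WT and 5.90, 6.09 and 5.91 in P915H. All KO samples were below the others, with KO replicate 1 just under WT replicate 1. It was 1.43-fold lower in KO than in P915H (log2 -0.52 ± 0.14, adjusted p 0.0344), and the other, chr1:170934515-170934723, 2299 bp outside the gene, differed by -0.46. Both calls were lost without KO replicate 2 or 3 or any 1 P915H sample.

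**Figure D4:**
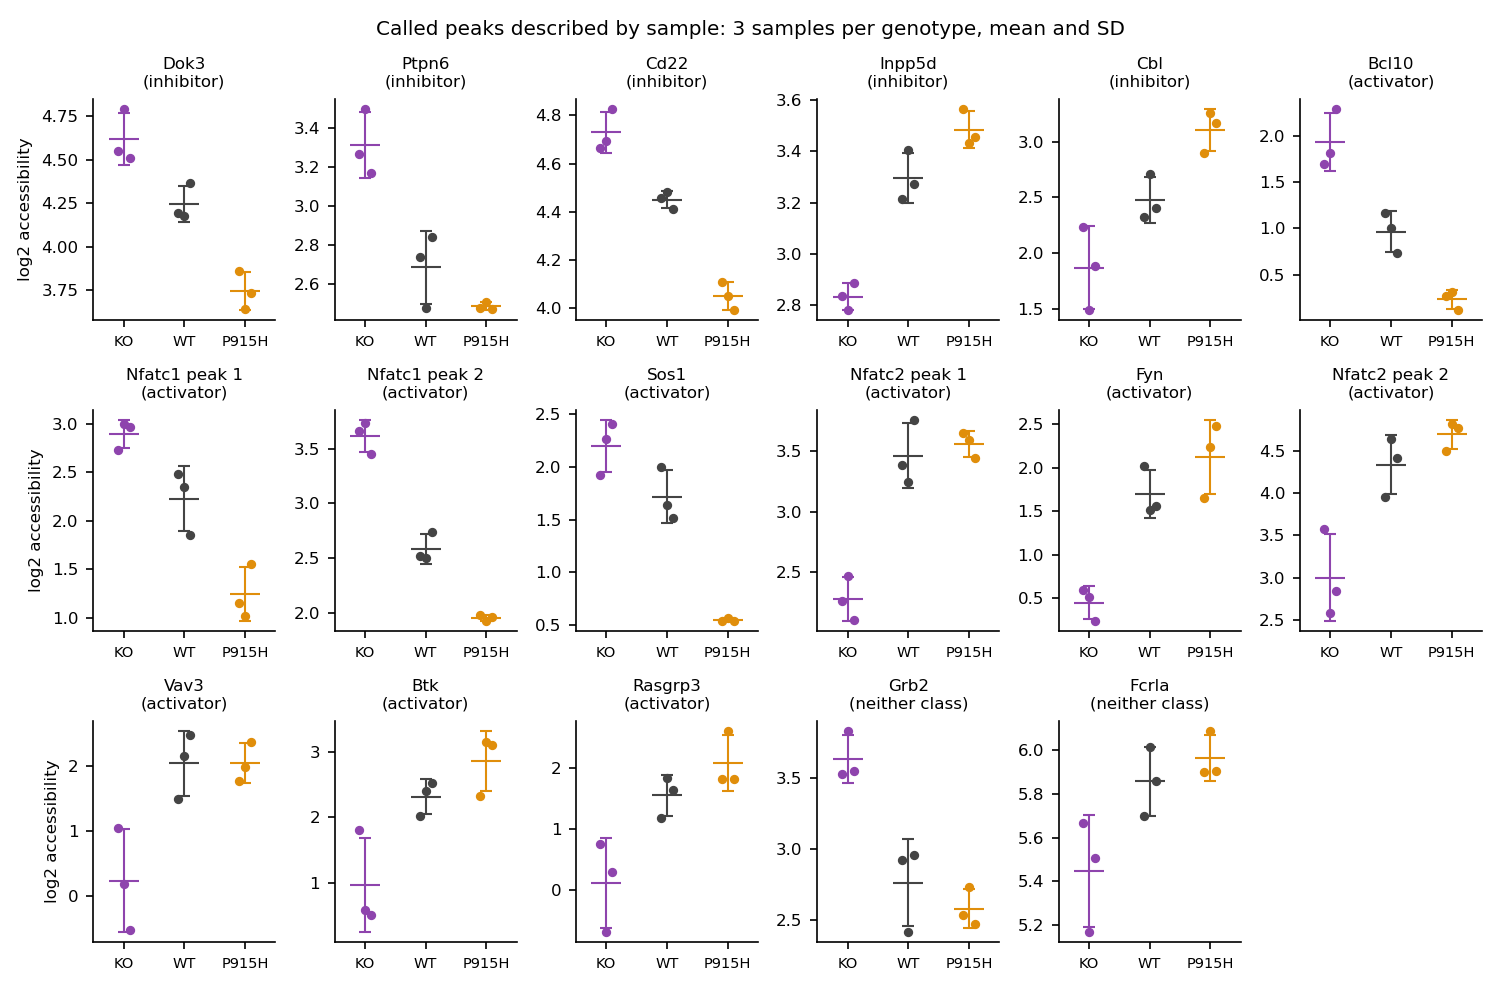
Points are the log2 accessibility of single samples (vertical axis) in KO, WT and P915H at the 17 called peaks given by sample, with mean and SD. Nfatc1 peak 1 starts at 80619498 and peak 2 at 80617318, and Nfatc2 peak 1 starts at 168543065 and peak 2 at 168438942. The panels were chosen from the peaks called in KO against P915H, and they show where the WT samples lie and how far the samples of a genotype spread.

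Each mutant genotype was also compared with WT, which asks how loss and mutation of the receptor differ from the intact form. These comparisons share the WT samples with each other and a mutant group with the comparison above. In KO against WT, limma called 0 of the 473 member peaks (0.0195% of all peaks, 0.00487% higher and 0.0146% lower in KO), and 89 (18.8%) had an unadjusted p under 0.05, against 18.7% of all peaks. In P915H against WT limma called 0 (0.255% of all peaks, 0.00325% higher and 0.252% lower in P915H), and 31 (6.55%) had an unadjusted p under 0.05, against 7.72%. Without the replicate term the same tool called 45 (9.51%, against 11.1% of all peaks) and 9 (1.9%, against 1.72%). Leaving out KO replicate 1 gave 28 calls in KO against WT, 1 higher and 27 lower in KO, with 5.43% of all peaks called in that fit.

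The activator peaks with the smallest p in KO against WT were the Nfatc2 peak inside the gene (KO minus WT -1.19 ± 0.19, adjusted p 0.0583) and the first Nfatc1 peak (1.03 ± 0.17, adjusted p 0.0592). Among inhibitor peaks they were the Ptpn6 start site (0.63 ± 0.17, adjusted p 0.1) and the Inpp5d peak (-0.46 ± 0.14, adjusted p 0.129). In P915H against WT they were Sos1 chr17:80499453-80499684 (P915H minus WT -1.17 ± 0.26, adjusted p 0.161) and the last Nfatc1 peak (-0.99 ± 0.25, adjusted p 0.218) for activators. For inhibitors they were the Dok3 start site (-0.50 ± 0.14, adjusted p 0.278) and the Cd22 peak (-0.40 ± 0.11, adjusted p 0.324). None of these 8 passed. Side by side, the Vav3 peak chr3:109454611-109454948 gave KO minus WT -1.82 and P915H minus WT 0.001, Sos1 gave 0.48 and -1.17, and Bcl10 gave 0.97 and -0.73.

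The median difference of activator peaks was -0.038 in KO minus WT and 0.033 in P915H minus WT, where all peaks had 0.001 and 0.015. That of inhibitor peaks was -0.126 and -0.022. Taken by replicate number, these medians had an SD of 0.058 and 0.028 for activators and of 0.14 and 0.065 for inhibitors. With 1 sample left out, the inhibitor median in KO minus WT ranged from -0.192 to -0.068. None of these medians was tested.

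Of 356 member peaks in gene bodies, 38 were called in KO against P915H (10.7%, against 14.6% of all peaks in coding gene bodies), and of 117 outside, 22 were called (18.8%, against 16.0%). Over their own start sites 2 of 21 were called (9.52%, against 5.11% of all peaks at start sites). None of these differences was tested.

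Other genes of the pathway, from lists of 45 further activating and 26 further inhibitory genes, were counted in the same fit. Of 388 peaks of the activating genes, 13 were higher and 38 lower in KO than in P915H (13.1%). Of 223 peaks of the inhibitory genes, 10 were higher and 31 lower (18.4%). Over all peaks 15.5% were called, 6.55% higher and 8.97% lower in KO, and neither list was tested against that share. Itpr1, a calcium release channel, had 2 higher and 9 lower of 34 peaks. The related channel gene Itpr2 had 3 higher and none lower of 33, and Akt2 3 lower of 5. Itpr1, Itpr2 and Akt2 were picked from the lists for mention after their values were seen. Against WT, 1 peak of the 2 lists passed, in an inhibitory gene, lower in P915H (0.448% of the inhibitory list, against 0.255% of all peaks).

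Markers of cell types were summed in each sample. Over 109 peaks of 7 B cell genes, 3 of them members, the antilog values ranged from 1470 to 1580 in KO, 1590 to 1640 in WT and 1600 to 1700 in P915H. The T cell list (24 peaks at 9 of 12 genes, none at Cd4, Cd8a or Bcl11b) ranged from 208 to 240, 235 to 257 and 252 to 284, and the monocyte and macrophage list (38 peaks at 6 of 7 genes, none at Lyz2) from 493 to 533, 533 to 574 and 558 to 584. The follicular B cell list ranged from 368 to 422, 424 to 458 and 433 to 466, and that of age-associated B cells overlapped between genotypes, at 615 to 641, 624 to 652 and 595 to 639. Dendritic cell markers ranged from 538 to 551 in KO, 510 to 523 in WT and 508 to 544 in P915H. Of their 51 peaks, 9 were called higher and 5 lower in KO than in P915H. B cell markers had 8 higher and 16 lower of 109, and follicular markers 0 and 6 of 28. The counts were 2 and 5 of 24 for T cells, 6 and 5 of 38 for monocytes and macrophages, and 4 and 8 of 73 for age-associated B cells. Plasma cell markers had 2 and 1 of 41, and natural killer cell markers 1 and 1 of 19. Over all peaks 15.5% were called. Plasma cell markers (369 to 398, 357 to 402 and 354 to 384) and natural killer cell markers (239 to 247, 241 to 255 and 237 to 247) overlapped between genotypes. Neutrophil and erythroid markers had 3 peaks each, with 0 called and 1 lower in KO. In bulk cells a change in the mix of cells and a change within each cell cannot be told apart, and the part of these lists in the calls above was not tested.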

How the data were processed

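ATAC-seq was run on 9 samples, 3 per genotype. Values were deposited by the authors as log2 for 61540 peaks, and a second table gives positions on mm10, printed as deposited. Per the submitters' processing notes, limma, MACS2, Picard 2.18.12, SAMtools, Bowtie2 2.3.3 and Trim Galore 0.6.5 were used, with no role given. Normalization, peak pooling and read depth are not given in the sources used here, so no counting interval is printed. The mean over genotypes was the same for every replicate number to within 1.1e-14, so a replicate effect had been removed before deposit. The fit therefore has a replicate term, which leaves 4 residual degrees of freedom. Equal replicate numbers cannot be checked as pairs in such values. The removal also alters the spread within each genotype. Since a call favours peaks whose KO and P915H samples lie apart, their separation at called peaks is no separate support.

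limma 3.58.1 (R 4.3.3) fitted genotype and replicate over all 9 samples with an intensity trend, two-sided, Benjamini-Hochberg adjusted over all peaks, threshold 0.05. No peak was filtered and no pseudocount added. SE is that of the fit. The procedure was also run on simulated data, in 3 draws with 200 changed peaks each. The simulated noise had the same SD for a peak in every genotype, so it does not bear on unequal spread between genotypes. Plots were drawn with matplotlib 3.10.9 and tables made with NumPy 2.4.6 and pandas 2.3.3 under Python 3.11.15. Gene bodies, start sites and sequences are from RefSeq GRCm38.p6. Cd79b, Lyn, Blk, Malt1 and Nfatc1 had no entry among the promoter windows. The members, gene lists and classes were chosen with earlier results of these data known. All called peaks are given with their values. Of peaks that were not called, the strongest ones named by the rule below are given too, and a pair at Fyn and Cblb chosen after their values were seen. Peaks given by sample were up to 6 activator, 6 inhibitor and 2 unclassed calls with the largest fold change, the 2 activator and 2 inhibitor peaks with the smallest p in each comparison with WT, and the strongest peak of Cd79a, Cd79b, Syk, Btk, Cd22 and Ptpn6. Alternatives changed the replicate term, normalization, pseudocount, filter, sample weights, trend, samples, threshold, gene assignment and classes, and left out each sample in turn. Some results for other genes of the pathway are not reported here.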

Additional observations from a re-analysis of the deposited data

How the results depend on the processing

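Without the replicate block, 139 member peaks were called in KO against P915H (55 higher, 84 lower), 45 in KO against WT and 9 in P915H against WT, where 27.7%, 11.1% and 1.72% of all peaks were called. The first included 109 activator and 16 inhibitor peaks. No paired check was possible, because the replicate effect had been removed. At an adjusted p under 0.01 the counts in KO against P915H were 23 members, 19 activators and 3 inhibitors, and under 0.1 they were 103, 84 and 11. Shares of all peaks at these thresholds are not given here for any comparison, so the member counts cannot be set against the table. Counting peaks in gene bodies alone gave 38 members and 32 activators. Sample weights gave 11 inhibitor calls and 83 member calls (17.5%), and 20.2% of all peaks were called, against 15.5% in the main fit. In KO against WT, 5 members were called after median centring (1.06%, against 1.04% of all peaks), 5 after quantile normalization (1.06%, against 1.15%), 10 with sample weights (2.11%, against 2.5%) and 16 at an adjusted p under 0.1. In P915H against WT, 2 were called with sample weights (0.423%, against 1.02%). With 1 sample left out, members called in KO against P915H ranged from 18 (without P915H replicate 2, 5.24% of all peaks called) to 90 (without KO replicate 1, 16.8%), activators from 15 to 70 and inhibitors from 2 to 13. Members called in KO against WT ranged from 0 to 28 and in P915H against WT from 0 to 0. The other alternatives kept the member count within 1.5 times. No trend gave 47 members called, with 14% of all peaks called. Leaving out low peaks gave 58 (15% of all peaks), a pseudocount of 1 gave 62 (15.8%) and the 6 samples alone 65 (15.4%). A 50 kb window gave 57 and the nearest gene of any type 48, settings that change only which peaks are members. Depth is unknown, so its limit on small differences is too.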

Other observations

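The largest difference at any member peak was at Fyn, at a peak that did not pass. The peak chr10:39407057-39407298 had 1.01, -3.33 and 0.73 in KO, 1.76, 4.09 and 2.04 in WT and 1.87, 3.87 and 1.86 in P915H (KO minus P915H -3.06 ± 1.10, adjusted p 0.092). The KO replicate 2 value was far below the other KO samples, and WT and P915H replicates 2 were the highest of their genotypes. The means over genotypes are equal for every replicate number by construction of the deposited values. At Cblb, the peak chr16:52081914-52082138 had 1.64, 0.92 and -0.47 in KO, 1.79, 2.17 and 3.07 in WT and 2.03, 2.37 and 2.85 in P915H, with a difference of -1.73 ± 0.52 that did not pass the threshold. Both peaks were chosen for mention after their values were seen.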
